A study of Mus musculus with 26 samples.

Results

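The cadherins and nonclustered protocadherins are cell surface proteins with repeated extracellular cadherin domains. Members were chosen by symbol from the protein-coding entries of a table of counts per gene: the numbered cadherins (Cdh) except the endothelial Cdh5, the protocadherins (Pcdh) outside the clustered Pcdha, Pcdhb and Pcdhg genes, Celsr1 to Celsr3, Fat1, Fat3, Fat4 and Dchs1. This gave 41 members among 27502 entries. Dchs2 was not analysed here. The study sequenced RNA of nuclei sorted by brain cell type, and the table holds 26 libraries, each made from the brain of 1 mouse that was 6 to 12 weeks old. All mice, from 3 transgenic lines on a B6.FVB background, carried the ribosomal protein Rpl10a fused to green fluorescent protein (EGfp). It was driven by Snap25 sequences in the neuron line, Tg(Snap25-EGfp/Rpl10a)JD362Htz, by Aldh1L1 sequences in the astrocyte line, Tg(Aldh1L1-EGfp/Rpl10a)JD130Htz, and by Cnp sequences in the oligodendrocyte line, Tg(Cnp-EGfp/Rpl10a)JD368Htz, so a sorted type is the set of nuclei marked by that driver. There were 4 libraries of sorted nuclei from each line, 4 of presort nuclei, which are the unsorted mixture, from each line, and 2 of whole-brain cytoplasm, 1 from a male of the astrocyte line and 1 from a female of the oligodendrocyte line. Each nuclear group held 2 males and 2 females. The series' design says that presort RNA was taken from every mouse, and each presort number is followed by the sorted number of the same line and sex, but the labels do not say which libraries share a mouse.

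Classical cadherins bind cadherins on the facing cell in the presence of calcium, and their cytoplasmic tails bind catenins, which link the junction to actin. Type I and type II classical cadherins differ in how their outermost domains pair. The nonclustered protocadherins are divided into delta-1 and delta-2 groups by their cytoplasmic motifs. Celsr proteins are adhesion receptors of the core planar cell polarity pathway, and Fat and Dachsous are giant cadherins that bind each other across cell boundaries. In brain these families are known for the sorting of cells and the matching of synaptic partners, and many members are expressed in restricted sets of neurons or glia.

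The genes are long. The median span from annotated start to end was 123.3 kb over the 41 members against 17.8 kb over 21107 protein-coding genes of the table, and 23 members (56.1%) spanned more than 100 kb against 11.5% of those genes. The longest were Pcdh15 on chromosome 10 (1550.4 kb), Cdh12 on chromosome 15 (1140.3 kb) and Cdh13 on chromosome 8 (1041.2 kb). Several members are neighbours. Cdh6, Cdh9, Cdh10, Cdh12 and Cdh18 follow each other on chromosome 15 with no other protein-coding gene of the table between them, as do Cdh7 and Cdh19 on chromosome 1, and Cdh20 lies 4986.9 kb before Cdh7. In GRCm38, by GENCODE M21, Cdh20 lies at chr1:104768529-104995481, Cdh7 at chr1:109982431-110140157, Cdh19 at chr1:110888326-110977584, Cdh18 at chr15:22549022-23474418, Pcdh9 at chr14:93013410-93890679 and Dchs1 at chr7:105752990-105787654.

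Promoter sequences from RefSeq (GRCm38.p6), running from 250 bases before to 50 bases after a gene's start, were at hand for 27 of the 41 members, with 30 starts. They held a median of 60.5% G and C and 16 CpG pairs, against 52.7% and 7 over 32851 promoters of the same length. The letters TATAAA stood in 6.67% of the members' promoters against 13.6% of all, GGGCGG in 33.3% against 35.7%, the E-box CANNTG in 56.7% against 72.3% and ACAAAG in 16.7% against 18.7%, on either strand. TTCAGCACC, the left arm of the RE1 element read by the neuronal gene repressor REST, stood in 6.67% of the members' promoters, those of Celsr3 and Cdh9, against 0.371% of all. Each motif was searched on both strands, overlaps between motifs were not removed, and a match describes letters only. Sequences are printed for those 2 genes, with that arm in capitals. Both were higher in sorted neurons than in sorted astrocytes, and Celsr3 was also high in 1 sorted oligodendrocyte library. The arm stood in no promoter at hand of Cdh7, Cdh8, Cdh12, Cdh15 or Cdh18, which were higher in neurons too. Sequences of Cdh20, low in neurons with its highest values in astrocytes, and of Pcdh9, highest in oligodendrocytes, have CpG pairs in capitals. All run 5′ to 3′ on the gene's strand. Those of Celsr3 (chr9:108825795-108826044, plus strand), Cdh20 (chr1:104768270-104768519, plus strand) and Pcdh9 (chr14:93890680-93890929, minus strand) are the 250 bases before the RefSeq start. For Cdh9 (chr15:16728883-16728912, plus strand) 30 bases around the match are shown, which lie before the RefSeq start and inside the exon that GENCODE annotates as the first.
Celsr3: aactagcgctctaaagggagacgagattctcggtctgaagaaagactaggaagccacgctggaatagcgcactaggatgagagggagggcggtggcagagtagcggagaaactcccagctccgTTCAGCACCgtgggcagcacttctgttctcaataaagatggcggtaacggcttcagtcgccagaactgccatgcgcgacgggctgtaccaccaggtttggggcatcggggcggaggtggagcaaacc
Cdh9: agttaaaagtGGTGCTGAAagagaggctca
Cdh20: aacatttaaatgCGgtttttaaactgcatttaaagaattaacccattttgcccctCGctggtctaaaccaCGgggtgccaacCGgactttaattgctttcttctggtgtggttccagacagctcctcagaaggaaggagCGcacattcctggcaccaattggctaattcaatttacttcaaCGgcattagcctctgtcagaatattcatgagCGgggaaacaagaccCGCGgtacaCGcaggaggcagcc
Pcdh9: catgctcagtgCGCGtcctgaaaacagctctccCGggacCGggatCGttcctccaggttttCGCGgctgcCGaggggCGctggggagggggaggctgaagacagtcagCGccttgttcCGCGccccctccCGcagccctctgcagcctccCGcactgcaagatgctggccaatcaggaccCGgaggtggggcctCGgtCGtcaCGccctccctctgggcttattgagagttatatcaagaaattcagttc

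Total counts per library ran from 134357 to 3239445 among sorted nuclei and from 147826 to 3274488 among presort nuclei, 11 of which held at most 313720, and were 4461568 and 3885312 in cytoplasm. Levels are given as CPM, a gene's counts scaled to the library's total. The summed level of a list of 14 astrocyte markers was 30999.5 to 37231.4 CPM in sorted astrocytes and at most 2188.9 in the other sorted types. That of 14 oligodendrocyte markers was 31035.3 to 40294.1 in sorted oligodendrocytes and at most 2329.6 elsewhere among sorted nuclei, and that of 15 neuronal markers was 11485.4 to 14263.9 in sorted neurons and at most 2658.7 elsewhere. A pair of sorted libraries stood apart. Astrocyte replicate 30 was the shallowest, so that 1 count was worth 7.44 CPM there. Oligodendrocyte replicate 36 had counts for 7674 genes, against at least 11136 in every other sorted library. Both came from females. Results among the sorted types are therefore given with all 12 libraries and, where a call changed, also without both of these.

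Values in a list follow the replicate numbers: 2, 4, 26 and 28 for sorted neurons, 6, 8, 30 and 32 for sorted astrocytes, 10, 12, 34 and 36 for sorted oligodendrocytes. Presort lists likewise run from the lowest number to the highest. Differences are log2 fold changes with their standard error (SE) from edgeR's quasi-likelihood fit to all genes, and a gene passed where its p, adjusted by Benjamini-Hochberg over all genes tested, was under 0.05. Of the 41 members 36 had enough counts to be tested among the sorted types, and 24 of these passed in at least 1 of the 3 comparisons. Against astrocytes, 9 members were higher in neurons, where 8.02% of 13029 genes were, and 8 were lower, where 11.4% of all genes were. Against oligodendrocytes, 12 were higher in neurons (10.7% of all genes) and 4 lower (12.4%). Between the glial types, 9 were higher in astrocytes (9.62%) and 3 higher in oligodendrocytes (7.48%). The median difference over the 36 members was -0.49, 0.70 and 0.51 in these comparisons, in that order, beside 0.05, 0.16 and 0.11 over all genes. As RNA was measured in bulk, fewer expressing cells and less RNA per cell cannot be told apart.

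**Figure D1:**
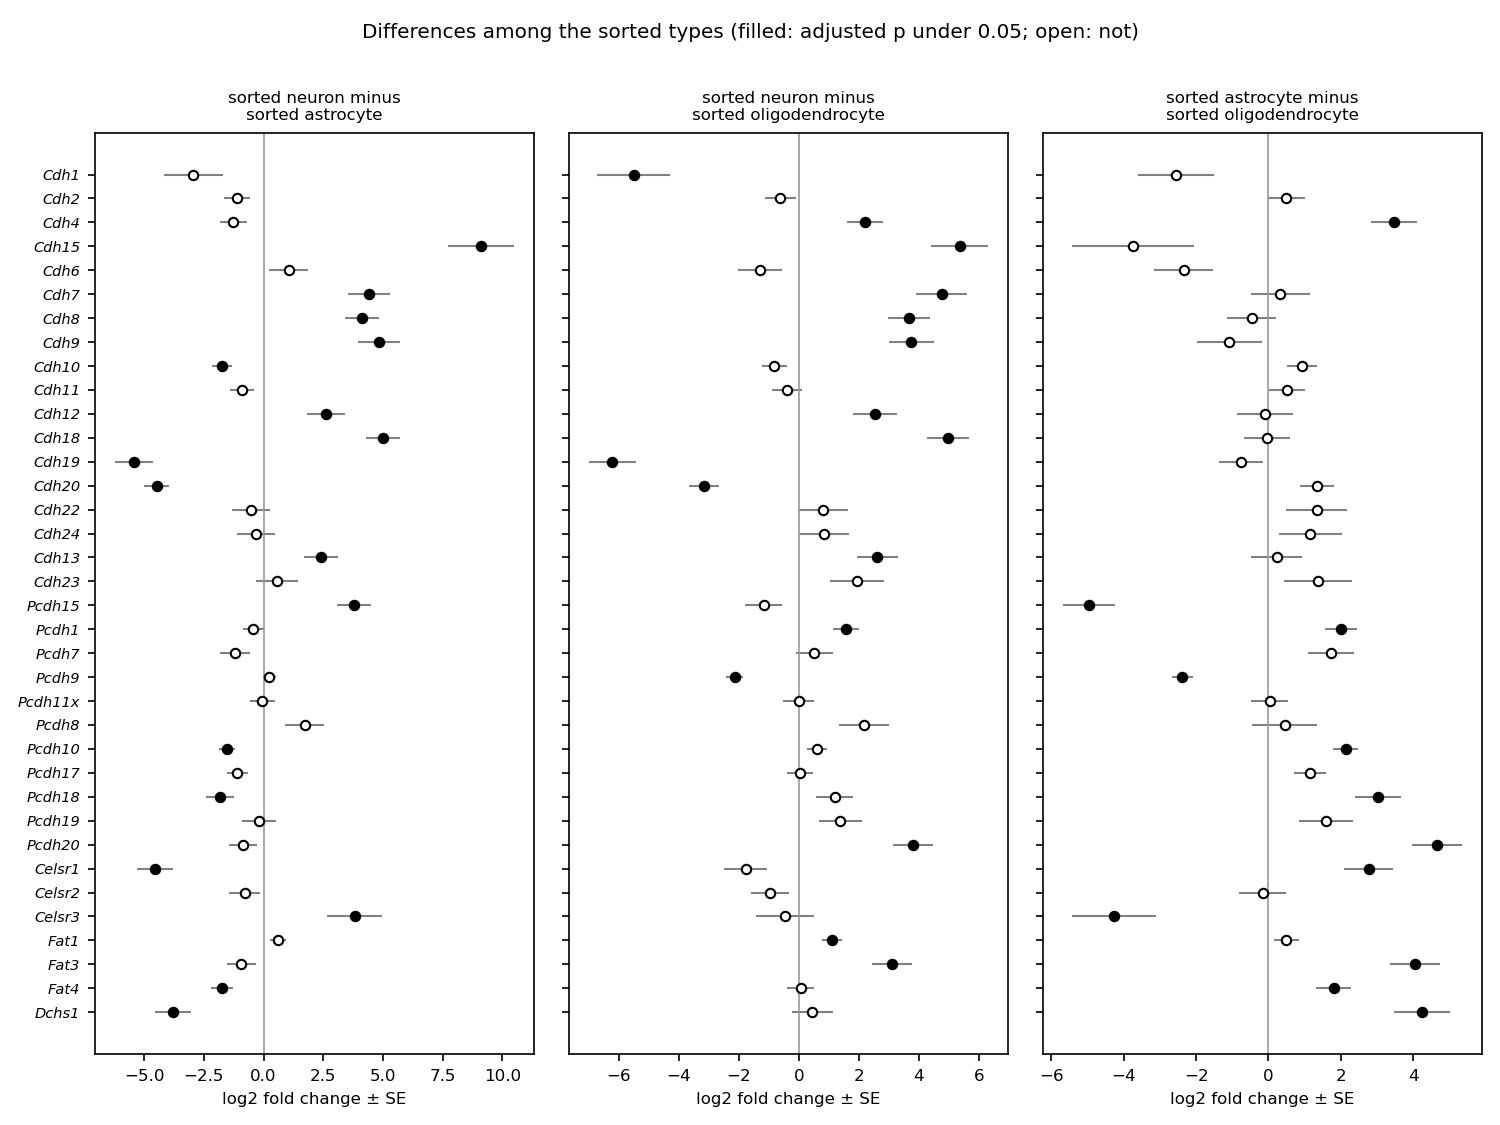
Log2 fold change with its SE (horizontal axis, bars) of each of the 36 tested members (rows, by subfamily) in the 3 comparisons of sorted types, with filled points for those that passed. Cdh7, Cdh8, Cdh9, Cdh18 and Cdh15 lie far to the right in both neuron comparisons, Cdh19 and Cdh20 far to the left; the Cdh15 values rest on groups at or near 0 counts.

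Without astrocyte replicate 30 and oligodendrocyte replicate 36, neurons exceeded astrocytes for 9 members (16.1% of 13427 genes) and fell below them for 15 (20.4%). They exceeded oligodendrocytes for 15 (17.1%) and fell below them for 7 (19.0%). Astrocytes exceeded oligodendrocytes for 16 (14.4%) and fell below them for 3 (11%), so the shares of all genes rose as well. All 17 and 16 calls of the neuron comparisons were among these, and 11 of the 12 between the glial types. The call that was lost was that of Celsr3. In males alone, the same 3 comparisons gave 10 and 11 members (12.2% and 14.9% of 13361 genes), 15 and 6 (13.8% and 14.5%), and 15 and 3 (12.3% and 10.3%). Females alone, whose 6 libraries include both that stand apart, gave 0 in each comparison by edgeR, with 12, 12 and 9 members at an unadjusted p under 0.05. The share of all genes that passed in females alone is not given here, so these counts are not a result about the members.

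Members could be higher in 1 sorted type than in each of the others, with a log2 fold change over 1 against both. In neurons 7 members met this (Cdh15, Cdh7, Cdh8, Cdh9, Cdh12, Cdh18 and Cdh13), where 5.21% of all genes did. In astrocytes 5 did (Pcdh10, Pcdh18, Celsr1, Fat4 and Dchs1), beside 5.82% of all genes, and in oligodendrocytes 1 did (Pcdh9), beside 5.35%. Members lower in 1 type than in both others were Cdh19 and Cdh20 in neurons (4.49% of all genes), Pcdh15 and Celsr3 in astrocytes (1.29%) and Cdh4, Pcdh1, Pcdh20 and Fat3 in oligodendrocytes (2.67%).

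**Figure D2:**
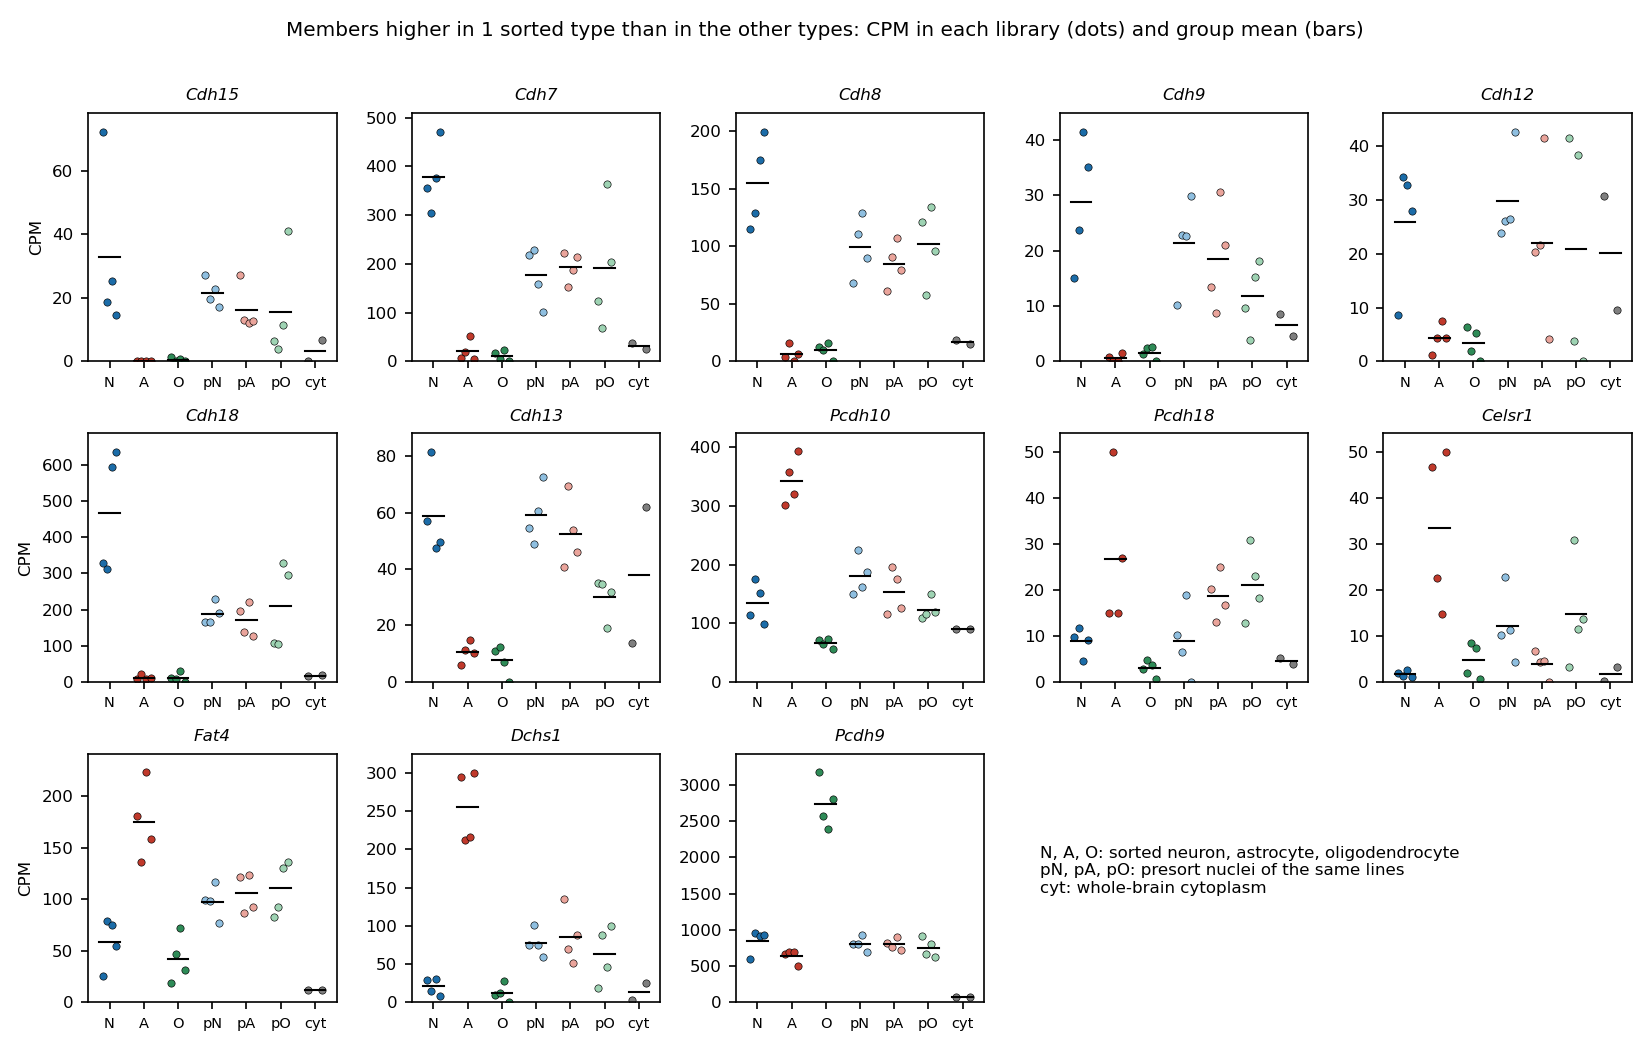
CPM (vertical axis) of the 13 members higher in 1 sorted type, in each of 26 libraries (dots) with group means (bars), by group (horizontal axis). Cdh18 reached 311 to 635 CPM in sorted neurons and stayed at or below 30.2 in both sorted glial types, and Pcdh9 was at 2382 to 3168 CPM in sorted oligodendrocytes.

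Among the type I classical cadherins, Cdh15 and Cdh4 separated the types. Cdh15 encodes M-cadherin, best known from muscle and also made by cerebellar granule cells. It read 72.3, 18.8, 25.3 and 14.5 CPM in sorted neurons, had 0 counts in all 4 sorted astrocyte libraries and read 1.36, 0, 0.745 and 0 CPM in oligodendrocytes. With a floor of 3 counts over the 4 astrocyte libraries (0.362 CPM), its mean in neurons was at least 90.4-fold higher. It was also higher in neurons than in oligodendrocytes (log2 fold change 5.36 ± 0.94, adjusted p = 0.00121). The summed level of a list of 10 cerebellar granule cell markers was 13263, 7175, 8708 and 10500 CPM in the same neuron libraries. Replicate 2 had the most of both. Replicate 28, with the least Cdh15, had a higher sum than replicates 4 and 26. The part of these cells in the result was not tested. Without replicate 2 the difference from oligodendrocytes was 4.57 (adjusted p = 0.00328).

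Cdh4, or R-cadherin, read 35.8, 33, 9.13 and 21.4 CPM in neurons, 43.9, 58.2, 44.7 and 63.9 CPM in astrocytes and 7.5, 4.29, 4.47 and 0.624 CPM in oligodendrocytes. Every oligodendrocyte library was below every library of the other types. The differences were log2 fold change 2.20 ± 0.60, adjusted p = 0.0146 for neurons over oligodendrocytes and log2 fold change 3.47 ± 0.63, adjusted p = 0.000851 for astrocytes over oligodendrocytes, and without both libraries that stand apart astrocytes also exceeded neurons (-1.37, neurons minus astrocytes, adjusted p = 0.0154). Cdh2, or N-cadherin, the main classical cadherin of neural tissue, was present in every sorted library and passed in none of the 3 comparisons. It read 286, 303, 197 and 271 CPM in neurons, 346, 687, 506 and 509.7 CPM in astrocytes and 174, 188, 120.0 and 577 CPM in oligodendrocytes, where only replicate 36 passed 188 CPM. Without both libraries that stand apart, Cdh2 was higher in astrocytes than in neurons (log2 fold change -1.18, neurons minus astrocytes, adjusted p = 0.00496) and than in oligodendrocytes (1.61, adjusted p = 0.00145).

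Cdh1, the epithelial E-cadherin, read 0.377, 1.25, 0 and 0.381 CPM in sorted neurons, 0.853, 3.12, 0 and 7.41 CPM in sorted astrocytes and 5.8, 20.5, 57.4 and 0 CPM in sorted oligodendrocytes. The difference between neurons and oligodendrocytes passed (log2 fold change -5.50 ± 1.22, adjusted p = 0.00387), although replicate 36 had 0 counts. Leaving out both libraries that stand apart, neurons were also lower than astrocytes (-3.09, adjusted p = 0.0234) and astrocytes lower than oligodendrocytes (-2.81, adjusted p = 0.0141). All 12 presort libraries lay between 8.67 and 64.0 CPM, above every sorted neuron and astrocyte library.

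The type II classical cadherins, which mark subsets of neurons and of brain regions, held 5 of the 7 members higher in neurons than in both glial types. All 12 were tested. Against astrocytes 5 were higher (8.02% of all genes) and 3 lower (11.4%) in neurons. Against oligodendrocytes 5 were higher (10.7%) and 2 lower (12.4%). None passed between the glial types, where 9.62% of all genes were higher in astrocytes and 7.48% in oligodendrocytes. Cdh6 (-2.34 ± 0.82, adjusted p = 0.0607) and Cdh20 (1.33 ± 0.47, adjusted p = 0.062) came closest there, and 3 members had an unadjusted p under 0.05 by edgeR. By DESeq2, whose share of all genes is not given here, 2 passed between the glial types. Cdh18 read 329, 311, 594 and 635 CPM in neurons, against 8.53, 21.1, 7.44 and 11.1 CPM in astrocytes and 10.9, 7.15, 30.2 and 0.624 CPM in oligodendrocytes. The lowest neuron library, at 311 CPM, lay far above the highest glial one, at 30.2. The differences were log2 fold change 4.99 ± 0.72, adjusted p = 0.000135 against astrocytes and log2 fold change 4.96 ± 0.70, adjusted p = 0.000105 against oligodendrocytes.

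Cdh7 had a similar pattern, with 356, 305, 377 and 471 CPM in neurons, 7.25, 19.9, 52.1 and 4.94 CPM in astrocytes and 17, 4.77, 23.8 and 0 CPM in oligodendrocytes. The highest glial value, 52.1 CPM, came from the shallow astrocyte replicate 30 and the groups did not overlap (log2 fold change 4.43 ± 0.88, adjusted p = 0.00167; log2 fold change 4.75 ± 0.85, adjusted p = 0.000803). Cdh8 read 115, 129, 175 and 199 CPM in neurons and at most 16.4 CPM in any glial library (log2 fold change 4.12 ± 0.73, adjusted p = 0.000676; log2 fold change 3.66 ± 0.69, adjusted p = 0.00119). Cdh9, which takes part in hippocampal mossy fibre synapses, read 15.1, 23.8, 41.5 and 35.1 CPM in neurons and at most 2.61 CPM in glia (log2 fold change 4.84 ± 0.87, adjusted p = 0.000783; log2 fold change 3.75 ± 0.75, adjusted p = 0.00188). Cdh12 read 8.67, 34.2, 32.8 and 27.8 CPM in neurons and at most 7.44 CPM in glia. Its difference from astrocytes (log2 fold change 2.62 ± 0.78, adjusted p = 0.025) was lost without any 1 of neuron replicates 4 and 26 and astrocyte replicates 6, 8 and 32 (adjusted p from 0.056 to 0.113). That from oligodendrocytes (log2 fold change 2.53 ± 0.73, adjusted p = 0.0185) was lost without oligodendrocyte replicate 12 (adjusted p = 0.0503).

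Cdh20, Cdh7 and Cdh19 lie in this order on chromosome 1 and had different patterns. Cdh20 was the opposite of Cdh7: it read 7.91, 15.4, 3.32 and 12.6 CPM in neurons, 207, 186, 164 and 217 CPM in astrocytes and 83.5, 75.8, 91.3 and 26.2 CPM in oligodendrocytes. The 3 types did not overlap, and neurons were lower than astrocytes (log2 fold change -4.48 ± 0.54, adjusted p = 2.84e-05) and oligodendrocytes (log2 fold change -3.15 ± 0.51, adjusted p = 0.000313). Astrocytes and oligodendrocytes differed without both libraries that stand apart (1.24 ± 0.37, adjusted p = 0.022) and not with them. Cdh19, a cadherin of Schwann cell precursors and glia, had at most 2 counts in any neuron library (0, 0.418, 0.83 and 0.381 CPM) and read 11.5, 21.1, 29.8 and 14.5 CPM in astrocytes and 17, 14.3, 56.2 and 17.5 CPM in oligodendrocytes. It was lower in neurons than in astrocytes (log2 fold change -5.44 ± 0.79, adjusted p = 0.000147) and oligodendrocytes (log2 fold change -6.20 ± 0.79, adjusted p = 3.89e-05).

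**Figure D3:**
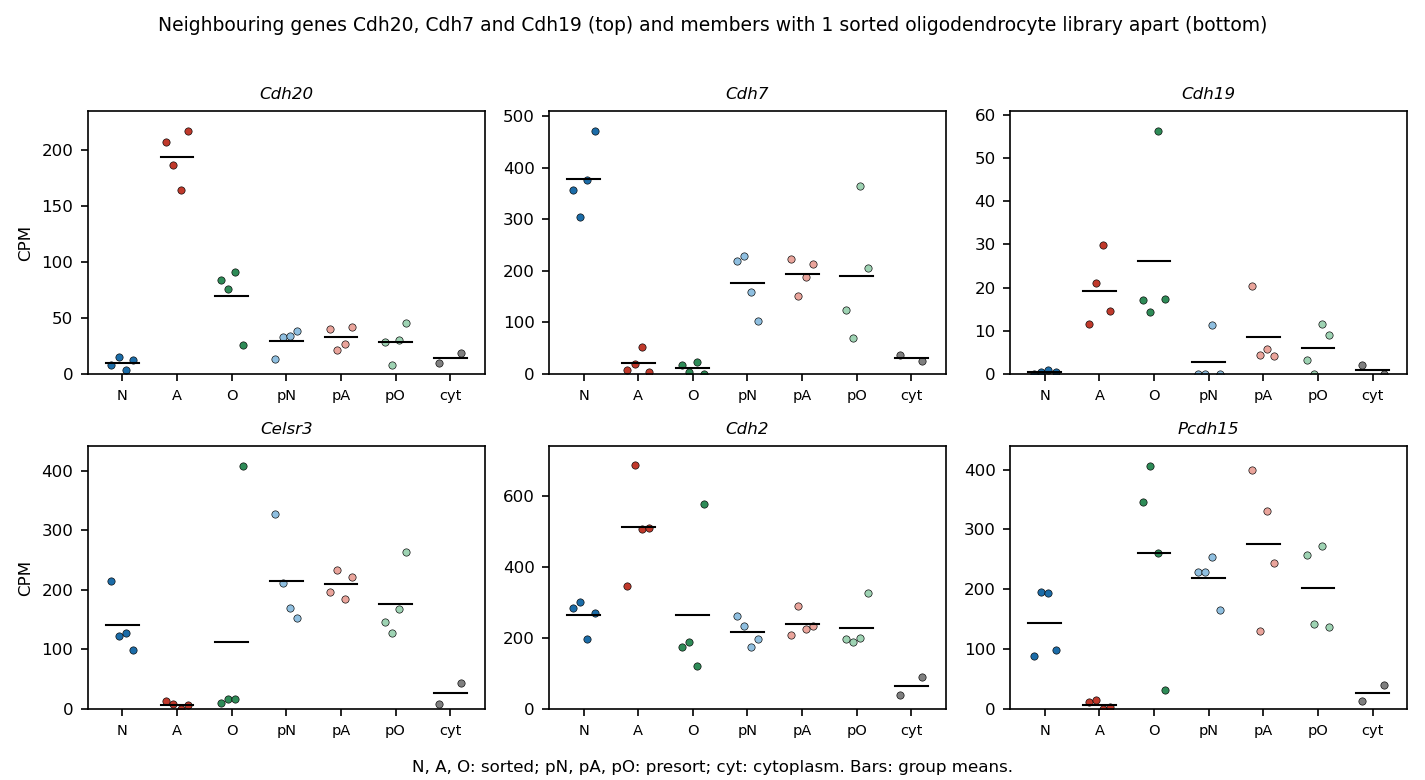
CPM (vertical axis) in each library (dots) with group means (bars), by group (horizontal axis), for Cdh20, Cdh7 and Cdh19 (top) and for Celsr3, Cdh2 and Pcdh15 (bottom). Sorted oligodendrocyte replicate 36 lies at 408 CPM of Celsr3 and 577 of Cdh2, above the others of its group, and at 31.8 CPM of Pcdh15, below them.

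The chromosome 15 neighbours were not uniform either. Cdh9, Cdh12 and Cdh18 were higher in neurons, whereas Cdh10, which lies between Cdh9 and Cdh12, was higher in astrocytes. It read 24.9, 63, 73.5 and 64.4 CPM in neurons, 145, 203, 201 and 129.7 CPM in astrocytes and 97.5, 88.2, 92.8 and 33.1 CPM in oligodendrocytes, and the neurons lay below the astrocytes (log2 fold change -1.75 ± 0.43, adjusted p = 0.00742). With astrocyte replicate 30 and oligodendrocyte replicate 36 left out neurons were also lower than oligodendrocytes (-1.01, adjusted p = 0.0205). Cdh6, at their edge, read at most 13.4 CPM among sorted libraries except in oligodendrocyte replicate 36 (38.1) and passed in none of the sorted comparisons. The other type II members, Cdh11 (56.7 to 253 CPM over the 12 sorted libraries), Cdh22 (1.36 to 26.8) and Cdh24 (0 to 7.44), also passed in none of the sorted comparisons. In the 10 other sorted libraries, Cdh11 was higher in astrocytes than in neurons (-0.82, neurons minus astrocytes, adjusted p = 0.038) and oligodendrocytes (1.22, adjusted p = 0.01), and Cdh22 was lower in oligodendrocytes than in neurons (2.48, adjusted p = 0.00557) and astrocytes (3.18, adjusted p = 0.00149).

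Among the atypical cadherins 3 of 6 members were tested. Cdh13, or T-cadherin, which is held in the membrane by a lipid anchor, read 56.9, 81.4, 47.3 and 49.6 CPM in neurons, 5.97, 11.3, 14.9 and 10.2 CPM in astrocytes and 10.9, 12.4, 7.08 and 0 CPM in oligodendrocytes, with no overlap. It was higher in neurons than in astrocytes (log2 fold change 2.39 ± 0.71, adjusted p = 0.0238) and oligodendrocytes (log2 fold change 2.62 ± 0.68, adjusted p = 0.0108). The first of these calls was lost without any 1 of neuron replicate 4 and astrocyte replicates 6, 8 and 32 (adjusted p from 0.0588 to 0.0985). Pcdh15, known with Cdh23 from the tip links of hair cells and as a gene of oligodendrocyte precursors, read 88.5, 195, 195 and 98 CPM in neurons, 11.5, 14.8, 0 and 3.7 CPM in astrocytes and 347, 406, 260.0 and 31.8 CPM in oligodendrocytes. It was lower in astrocytes than in neurons (log2 fold change 3.79 ± 0.70, adjusted p = 0.000944) and oligodendrocytes (log2 fold change -4.96 ± 0.73, adjusted p = 0.000144). Without both libraries that stand apart it was also higher in oligodendrocytes than in neurons (-1.54, neurons minus oligodendrocytes, adjusted p = 0.00514). The summed level of 7 oligodendrocyte precursor markers was 32.4 to 274 CPM in sorted oligodendrocytes, 444 to 819 CPM in sorted astrocytes and 125 to 205 CPM in sorted neurons, so within oligodendrocytes it was lowest in replicate 36, which also had the least Pcdh15, and across types it was highest in astrocytes, which had the least Pcdh15. Their part in the Pcdh15 result was not tested. Cdh23 read 0 to 15.3 CPM among sorted libraries and passed in none of the comparisons.

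Pcdh9, a delta-1 protocadherin, was the only member higher in oligodendrocytes than in both other types at a log2 fold change over 1. It read 3168, 2564, 2382 and 2808 CPM in oligodendrocytes, 605, 957, 914 and 924 CPM in neurons and 665, 688, 692 and 507 CPM in astrocytes. All 4 oligodendrocyte libraries, replicate 36 included, lay at or above 2382 CPM, and no other of the 26 libraries passed 957. The differences were log2 fold change -2.13 ± 0.29, adjusted p = 6.74e-05 for neurons minus oligodendrocytes and log2 fold change -2.38 ± 0.29, adjusted p = 2.88e-05 for astrocytes minus oligodendrocytes. Pcdh1 went the other way, with 1278, 663, 433 and 341 CPM in neurons, 818, 664, 521 and 1252 CPM in astrocytes and 172, 204, 166 and 153 CPM in oligodendrocytes. It was lower in oligodendrocytes than in astrocytes (log2 fold change 2.01 ± 0.45, adjusted p = 0.00445) and neurons (log2 fold change 1.57 ± 0.45, adjusted p = 0.017). The second call was lost without any 1 of neuron replicate 2 and oligodendrocyte replicates 10 and 12 (adjusted p from 0.0579 to 0.0899), and the value fell to 1.02 without neuron replicate 2. Pcdh7 (3.74 to 624 CPM) and Pcdh11x (51.5 to 246 CPM) passed in none of the sorted comparisons. Leaving out both libraries that stand apart, Pcdh7 was higher in astrocytes than in neurons (-1.26, neurons minus astrocytes, adjusted p = 0.00172) and oligodendrocytes (1.37, adjusted p = 0.00257). The exons of Pcdh7, Pcdh19 and Fat1 overlap those of other genes of the table on the opposite strand, and the strand setting of the counting is not given in the sources used here, so their reads could not be told apart.

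Of the 5 delta-2 protocadherins, whose tails recruit regulators of actin, 2 were higher in astrocytes than in each other type, where 5.82% of all genes were. The median over the 5 was -1.10 for neurons minus astrocytes and 1.59 for astrocytes minus oligodendrocytes, beside 0.05 and 0.11 over all genes. Pcdh10 read 301, 358, 320.0 and 394 CPM in astrocytes, 115, 176, 152 and 98.8 CPM in neurons and 70.9, 65.3, 73 and 56.2 CPM in oligodendrocytes, and the 3 types did not overlap. Astrocytes exceeded neurons (log2 fold change -1.52 ± 0.34, adjusted p = 0.00419) and oligodendrocytes (log2 fold change 2.14 ± 0.35, adjusted p = 0.000362). Pcdh18 read 14.9, 50, 14.9 and 26.9 CPM in astrocytes, 9.8, 11.7, 4.57 and 9.15 CPM in neurons and 2.73, 4.77, 3.73 and 0.624 CPM in oligodendrocytes. Astrocytes were higher than oligodendrocytes (log2 fold change 3.03 ± 0.64, adjusted p = 0.00276) and neurons (log2 fold change -1.84 ± 0.59, adjusted p = 0.038). The latter call was lost without any 1 of all 4 neuron replicates and astrocyte replicates 8 and 32 (adjusted p from 0.0776 to 0.197). Pcdh17 (18.7 to 233 CPM), Pcdh19 (0 to 174 CPM) and Pcdh8 (0 to 13.9 CPM) passed in none of the sorted comparisons. With astrocyte replicate 30 and oligodendrocyte replicate 36 left out, Pcdh17 was higher in astrocytes than in neurons (-1.14, neurons minus astrocytes, adjusted p = 0.00214) and oligodendrocytes (0.87, adjusted p = 0.0262), and Pcdh19 was lower in oligodendrocytes than in neurons (0.97, adjusted p = 0.0178) and astrocytes (1.29, adjusted p = 0.00571). Mutations of human PCDH19 cause an epilepsy that mainly affects females. Pcdh20, a protocadherin outside both groups, read 13.6, 22.1, 52.3 and 37.8 CPM in neurons, 34.5, 59, 59.5 and 51.2 CPM in astrocytes and 2.05, 2.38, 2.24 and 0 CPM in oligodendrocytes. It was lower in oligodendrocytes than in neurons (log2 fold change 3.80 ± 0.67, adjusted p = 0.000666) and astrocytes (log2 fold change 4.66 ± 0.69, adjusted p = 0.000146), with no overlap.

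The Celsr genes divided by type. Celsr1 was highest in astrocytes: it read 46.9, 22.6, 14.9 and 50 CPM in astrocytes, 1.88, 1.25, 2.49 and 1.14 CPM in neurons and 2.05, 8.58, 7.45 and 0.624 CPM in oligodendrocytes. Astrocytes exceeded neurons (log2 fold change -4.54 ± 0.75, adjusted p = 0.000394) and oligodendrocytes (log2 fold change 2.77 ± 0.68, adjusted p = 0.0084). In the 10 other sorted libraries, neurons were also lower than oligodendrocytes (-2.05, adjusted p = 0.0105). Celsr1 is known from radial glia and ependymal cells. The summed level of 10 ependymal and choroid plexus markers was 605, 4825, 7123 and 6385 CPM in sorted astrocytes and at most 172 CPM in the other sorted types. Astrocyte replicate 6, with the lowest sum, read 46.9 CPM of Celsr1. Replicate 30, with the highest, read 14.9 CPM, or 2 counts, and replicate 32 read 50 CPM. The part of these cells in the Celsr1 results was not tested. Celsr2 read 85.4 to 510 CPM over the 12 libraries and passed in none of the sorted comparisons.

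Celsr3, which guides axon tracts, read 216, 123, 127 and 99.9 CPM in neurons, 13.2, 8.98, 0 and 7.1 CPM in astrocytes and 9.89, 17.6, 16.4 and 408 CPM in oligodendrocytes. Neurons exceeded astrocytes with no overlap (log2 fold change 3.81 ± 1.14, adjusted p = 0.0254). That call was lost without any 1 of neuron replicate 2 and the 4 astrocyte replicates (adjusted p from 0.0583 to 0.0808), whereas without oligodendrocyte replicate 36 it was 3.75 ± 0.41 (adjusted p = 1.499e-06). The oligodendrocyte level rested on replicate 36. With it, the difference between neurons and oligodendrocytes did not pass (log2 fold change -0.46 ± 0.98, adjusted p = 0.784), and oligodendrocytes were higher than astrocytes (log2 fold change -4.27 ± 1.16, adjusted p = 0.0161). Without it, neurons exceeded oligodendrocytes by 3.02 ± 0.42 (adjusted p = 2.569e-05), and astrocytes and oligodendrocytes differed by -0.73 ± 0.43 (adjusted p = 0.248), a call that was also lost without astrocyte replicate 32 (adjusted p = 0.0555).

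Of the Fat and Dachsous genes, Dchs1, the ligand of Fat4, had the largest difference between astrocytes and neurons. It read 295, 212, 216 and 300.1 CPM in astrocytes, 28.6, 15.4, 30.7 and 8.39 CPM in neurons and 9.21, 12.9, 27.9 and 0 CPM in oligodendrocytes. Every astrocyte library was at or above 212 CPM and every other sorted library at or below 30.7 CPM (log2 fold change -3.79 ± 0.76, adjusted p = 0.00176; log2 fold change 4.25 ± 0.78, adjusted p = 0.000871). Its receptor Fat4 read 181, 136, 223 and 158 CPM in astrocytes, 26, 79.3, 75.1 and 54.5 CPM in neurons and 19.1, 46.7, 72.3 and 31.8 CPM in oligodendrocytes. Astrocytes were higher than neurons (log2 fold change -1.74 ± 0.48, adjusted p = 0.015) and oligodendrocytes (log2 fold change 1.80 ± 0.48, adjusted p = 0.0139). The first call was lost without neuron replicate 2 or 28 (adjusted p of 0.0548 and 0.0517) and the second without oligodendrocyte replicate 10 (adjusted p = 0.0588). Both genes are also known from mesenchymal cells. The summed level of 10 mural and fibroblast markers was 372 to 522 CPM in sorted astrocytes, 9.96 to 35.4 CPM in neurons and 4.37 to 239 CPM in oligodendrocytes, and their part in these results was not tested.

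Fat3, which shapes dendrites, read 189, 349, 515 and 337 CPM in neurons, 731, 522, 610.3 and 477 CPM in astrocytes and 36.1, 27.2, 67.8 and 0.624 CPM in oligodendrocytes. It was lower in oligodendrocytes than in neurons (log2 fold change 3.12 ± 0.67, adjusted p = 0.00296) and astrocytes (log2 fold change 4.05 ± 0.69, adjusted p = 0.000517), with no overlap. Without both libraries that stand apart, it was also higher in astrocytes than in neurons (-0.97, neurons minus astrocytes, adjusted p = 0.0317). Fat1, which acts on actin at cell contacts, read 1923, 966, 840.1 and 914 CPM in neurons, 727, 719, 662 and 624 CPM in astrocytes and 402, 369.9, 448 and 396 CPM in oligodendrocytes. Neurons exceeded oligodendrocytes (log2 fold change 1.11 ± 0.34, adjusted p = 0.0257). Without any 1 of neuron replicate 2 and oligodendrocyte replicates 10, 12 and 34 that call was lost (adjusted p from 0.0511 to 0.143), and without neuron replicate 2 the difference was 0.72.

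A further 5 members were too low to test among sorted nuclei. Cdh17 had 0 counts in all 26 libraries, Cdh16 had 3 counts, Cdh26 had 6, Pcdh12 had 18 and Cdh3, or P-cadherin, had 41. Of the 41 counts of Cdh3, 32 were in sorted nuclei, and its levels were 3.84, 2.73, 7.44 and 3.7 CPM in sorted astrocytes and at most 0.477 CPM in the other sorted types.

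**Figure D4:**
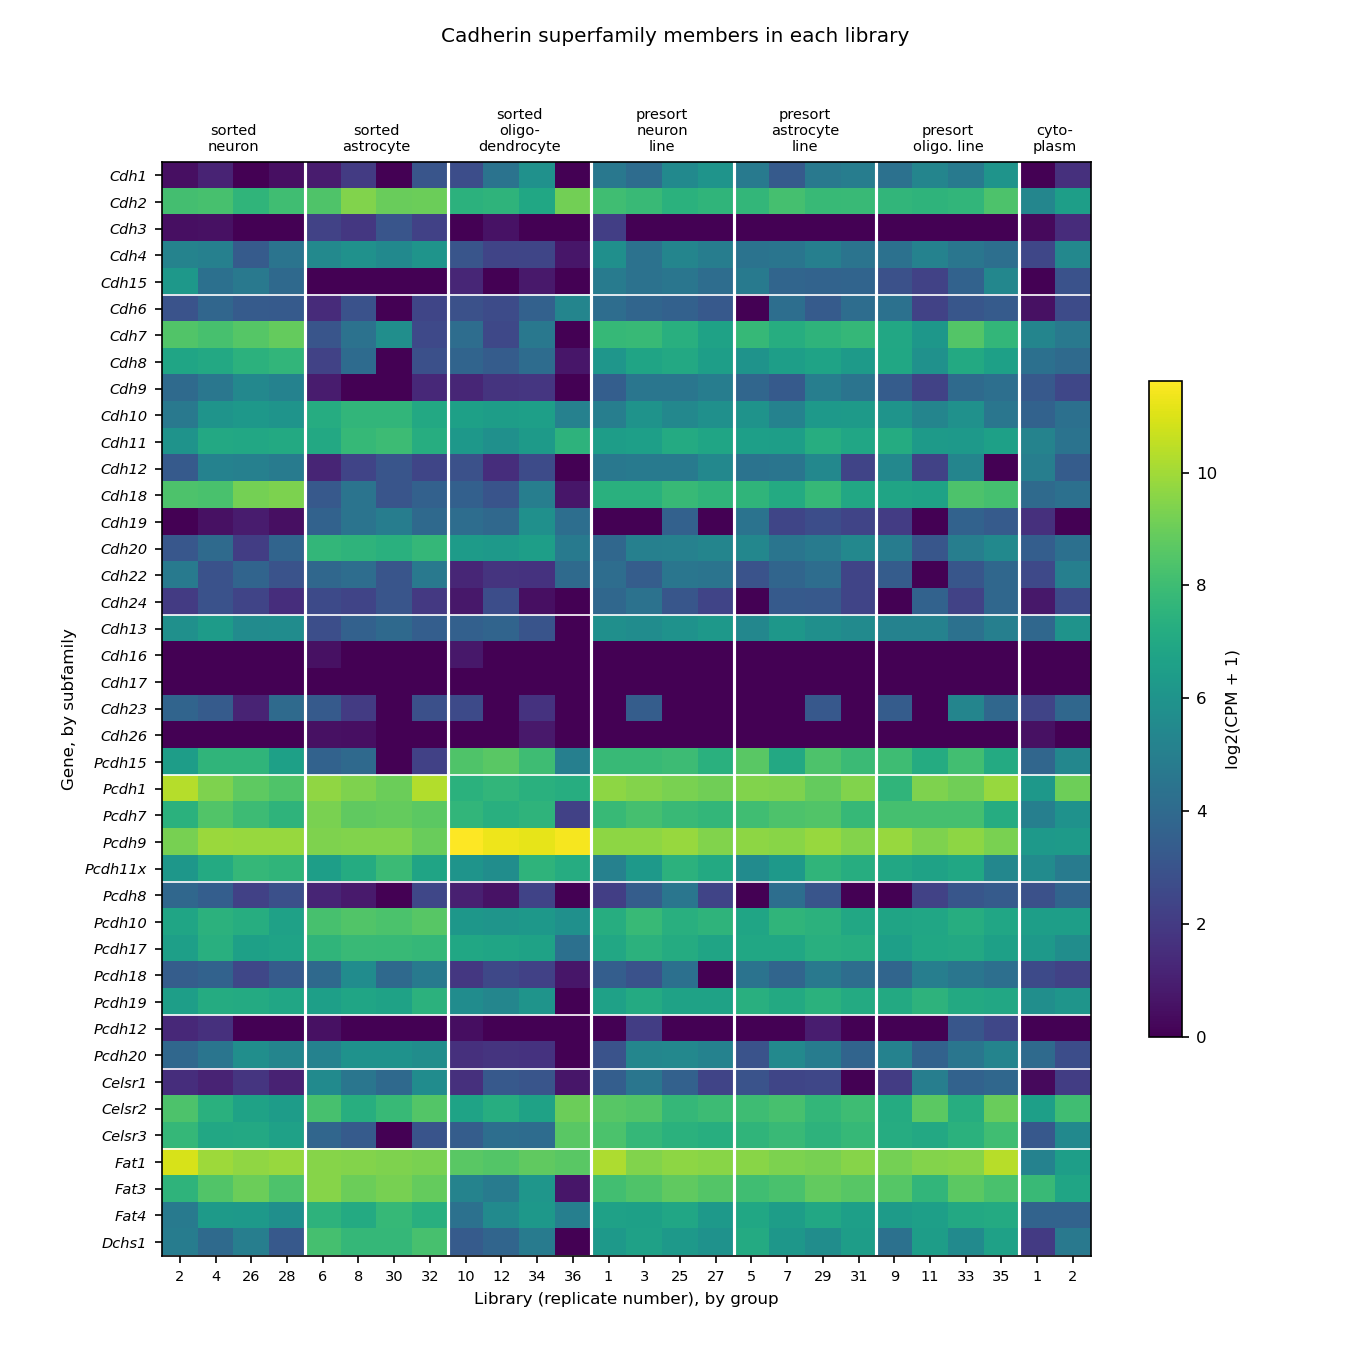
Level of each of the 41 members (rows, by subfamily) in each of the 26 libraries (columns, by group and replicate number), as log2(CPM + 1) by colour. The members together made up 4744 to 6683 CPM of sorted, 4491 to 6226 CPM of presort and 1116 and 1914 CPM of cytoplasmic libraries.

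The partners of these proteins were read out from 2 lists. Of 14 catenins and junction adaptors, 3 passed as lower in neurons and 0 as higher against astrocytes, and likewise 3 and 0 against oligodendrocytes. Between the glial types 2 were higher and 2 lower in astrocytes. Over all genes the lower and higher shares were 11.4% and 8.02% against astrocytes and 12.4% and 10.7% against oligodendrocytes. Between the glial types 9.62% of all genes were higher and 7.48% lower in astrocytes. The medians were -0.28, -0.21 and -0.10, beside 0.05, 0.16 and 0.11 over all genes. At an unadjusted p under 0.05 edgeR gave 1 adaptor higher in neurons in each neuron comparison. Ctnna3, an alpha-catenin, was lower in neurons than in astrocytes (-2.62 ± 0.70, adjusted p = 0.0137) and oligodendrocytes (-4.70 ± 0.74, adjusted p = 2.58e-04), and so was Ctnnd1, or p120-catenin (-1.06 ± 0.31, adjusted p = 0.0244; -1.40 ± 0.32, adjusted p = 0.0044). Vcl, the actin linker vinculin, was higher in astrocytes than in neurons (-2.76 ± 0.71, neurons minus astrocytes, adjusted p = 0.0103) and oligodendrocytes (3.28 ± 0.73, adjusted p = 0.00403). The delta-catenin Ctnnd2 was higher in astrocytes than in oligodendrocytes (3.04 ± 0.64, adjusted p = 0.0027). Pkp4, a relative of p120-catenin, was higher in oligodendrocytes than in neurons (-1.79 ± 0.45, neurons minus oligodendrocytes, adjusted p = 0.00811) and astrocytes (-2.40 ± 0.46, astrocytes minus oligodendrocytes, adjusted p = 0.0012).

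Of 13 planar cell polarity partners, neurons had 1 above and 4 below astrocytes and 3 above and 3 below oligodendrocytes. Between the glial types 4 were higher and 2 lower in astrocytes. The medians were -0.53, -0.79 and -0.02. The shares and medians over all genes given for the adaptors hold here too. Fat2, a giant cadherin of cerebellar granule cells that the symbol rule leaves out, was higher in neurons than in astrocytes (5.54 ± 0.49, adjusted p = 2.946e-06) and oligodendrocytes (5.09 ± 0.48, adjusted p = 2.006e-06). Fzd6, a Frizzled receptor, and Fjx1, a homologue of the kinase that modifies Fat and Dachsous, were lower in neurons than in astrocytes (-4.88 ± 0.80, adjusted p = 3.90e-04; -3.68 ± 0.64, adjusted p = 5.69e-04). Fjx1 was also higher in astrocytes than in oligodendrocytes (5.75 ± 0.71, adjusted p = 3.152e-05), as was Fzd6 (3.36 ± 0.74, adjusted p = 0.00377). Prickle1, a core pathway protein, was higher in oligodendrocytes than in neurons (-2.11 ± 0.43, adjusted p = 0.00228) and astrocytes (-3.29 ± 0.47, adjusted p = 1.16e-04). Vangl1, another core pathway protein, was lower in neurons than in oligodendrocytes (-2.95 ± 0.73, adjusted p = 0.00774).

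Sorted nuclei were next set against presort nuclei of the same line. In the neuron line, 33 members were tested: 2 were higher after the sort, where 1.27% of 11024 genes were, and 2 lower, where 5.1% were. Cdh18 rose from 167, 167, 231 and 192 CPM to the sorted levels given above (log2 fold change 1.43 ± 0.29, adjusted p = 0.0068) and Cdh7 from 218, 229, 159 and 102 CPM (log2 fold change 1.21 ± 0.27, adjusted p = 0.0121), though the Cdh7 call was lost without sorted neuron replicate 28 (adjusted p = 0.0576). Cdh1 fell from 23.9, 16.3, 45.3 and 64 CPM (log2 fold change -5.87 ± 0.70, adjusted p = 0.000103), and had too few counts to be tested without sorted replicate 2, 4, 26 or 28. Dchs1 fell from 75, 101, 75.6 and 59.7 CPM (log2 fold change -1.78 ± 0.40, adjusted p = 0.0128), a call lost without presort replicate 3 (adjusted p = 0.0686). In the fit of the 24 nuclear libraries, which share 1 estimate of the spread, the values of Cdh18 (1.45 ± 0.49, adjusted p = 0.107), Cdh7 (1.23 ± 0.58, adjusted p = 0.351) and Dchs1 (-1.75 ± 0.59, adjusted p = 0.0987) did not pass, so that by edgeR 0 members were higher (0.148% of 12171 genes) and 2 lower (4.4%), Cdh1 and Celsr1. At an unadjusted p under 0.05 that fit gave 2 higher and 4 lower. In males alone all 4 calls were lost (adjusted p from 0.0595 to 0.487). With each presort library paired as a block with the sorted library of the next number, a fit chosen after seeing the data, all 4 passed, and 5 members were higher (4.95% of 11024 genes) and 4 lower (8.2%): Cdh8 (0.74 ± 0.22, adjusted p = 0.0402), Pcdh11x (0.73 ± 0.22, adjusted p = 0.0382) and Fat1 (0.50 ± 0.15, adjusted p = 0.0484) were added to the higher ones, and Cdh20 (-1.53 ± 0.48, adjusted p = 0.0486) and Celsr2 (-0.84 ± 0.21, adjusted p = 0.0176) to the lower ones.

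In the astrocyte line, 31 members were tested: 14 were higher after the sort (13.7% of 11026 genes) and 9 lower (15.4%). The members that rose included Cdh20 (log2 fold change 2.88 ± 0.32, adjusted p = 1.02e-06), Celsr1 (log2 fold change 3.35 ± 0.57, adjusted p = 0.000111), Dchs1 (log2 fold change 1.94 ± 0.32, adjusted p = 8.16e-05), Cdh10 (log2 fold change 1.57 ± 0.31, adjusted p = 0.000465), Pcdh10 (log2 fold change 1.36 ± 0.26, adjusted p = 0.000393) and Cdh2 (log2 fold change 1.31 ± 0.26, adjusted p = 0.000517). Cdh2 read 209.7, 290.4, 224 and 235 CPM in presort nuclei of this line, below all 4 sorted libraries. Cdh4, Pcdh7 and Fat3 also rose, by 0.90 to 1.28, with adjusted p of 0.008, 0.0066 and 0.00997. All 3 calls were lost in the fit of the 24 nuclear libraries (adjusted p of 0.06, 0.191 and 0.206), and those of Cdh4 and Pcdh7 also in males alone (0.107 and 0.0595). Cdh11, Cdh19, Pcdh17, Pcdh20 and Fat4 rose as well (adjusted p from 0.0156 to 0.0407), but each call was lost without 1 to 5 single libraries (adjusted p up to 0.0952, 0.0944, 0.0533, 0.0858 and 0.0566): Cdh11 without sorted replicate 8 or presort replicates 5, 7 or 31, Cdh19 without presort replicates 7 or 31, Pcdh17 without presort replicate 7, Pcdh20 without sorted replicates 8 or 32 or presort replicates 5, 29 or 31, and Fat4 without presort replicates 7 or 31. These 5 were lost in the fit of the 24 nuclear libraries too, where 6 members rose (6.69% of 12171 genes) and 9 fell (10.8%). With the libraries paired as a block, 13 rose (12.3%) and 9 fell (14.7%), and only the call of Cdh19 was lost (adjusted p = 0.106).

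The 9 members that fell with the astrocyte sort were Cdh1, Cdh15, Cdh7, Cdh8, Cdh9, Cdh18, Cdh13, Pcdh15 and Celsr3. Celsr3 had the smallest p, falling from 196, 234, 184 and 222 CPM (log2 fold change -4.24 ± 0.36, adjusted p = 8.93e-08). Pcdh15 fell from 399, 130.0, 331 and 243 CPM (log2 fold change -4.62 ± 0.46, adjusted p = 3.05e-07), and Cdh18 from 196, 139, 219.9 and 126 CPM (log2 fold change -3.46 ± 0.37, adjusted p = 5.78e-07). The log2 fold changes of Cdh7, Cdh8, Cdh9 and Cdh13 were -3.67, -3.19, -4.35 and -2.24. Cdh15 went from 27.1, 13, 12.2 and 12.6 CPM to 0 counts, so its level after the sort was at least 44.8-fold lower. Cdh1 fell by 2.32 (adjusted p = 0.00458), which did not pass in the fit of the 24 nuclear libraries (adjusted p = 0.0658) or in males alone (0.138). Presort replicate 29 was far deeper (3274488 counts) than the other presort libraries of this line. Without it 5 members fell, since Cdh1, Cdh15, Cdh9 and Cdh13 then had too few counts to be tested. The share of all genes that fell in that fit is not given here, so this count does not set the members apart.

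In the oligodendrocyte line, 27 members were tested: 1 was higher after the sort (5.12% of 9520 genes) and 5 lower (3.24%). Pcdh9 rose from 921, 666, 808 and 619 CPM (log2 fold change 2.47 ± 0.39, adjusted p = 0.00364). Cdh18 (log2 fold change -3.74 ± 0.83, adjusted p = 0.0196), Pcdh20 (log2 fold change -3.48 ± 0.82, adjusted p = 0.0251), Cdh8 (log2 fold change -3.004 ± 0.716, adjusted p = 0.0259), Cdh7 (log2 fold change -3.71 ± 0.96, adjusted p = 0.0359) and Fat3 (log2 fold change -2.97 ± 0.80, adjusted p = 0.041) fell. All 5 of the latter were lost without 1 or another single library: presort replicates 33 and 35 for Cdh18 (adjusted p of 0.0813 and 0.0787), any presort replicate for Cdh8, Cdh7, Fat3 and Pcdh20, sorted replicate 12 for Cdh8, Cdh7 and Fat3, and sorted replicate 10 for Cdh7 and Fat3 (adjusted p up to 0.106, 0.141, 0.13 and 0.102 for Cdh8, Cdh7, Fat3 and Pcdh20). With the libraries paired as a block the 5 also missed the threshold (adjusted p from 0.0583 to 0.127), leaving by edgeR 0 lower (0.62% of 9520 genes; 8 at an unadjusted p under 0.05) and 1 higher member (2.33%), Pcdh9 (2.41 ± 0.38, adjusted p = 0.0197). In the fit of the 24 nuclear libraries 4 members were higher (12.4%) and 14 lower (12.7%), all 6 calls among them. Without sorted replicate 36, 4 members were higher (16.7% of 6174 genes) and 8 lower (16.8%), and Celsr3, which with it gave log2 fold change 0.50 ± 1.18, adjusted p = 0.867, was lower by 3.25 (adjusted p = 3.096e-05) after a presort level of 147, 127, 169 and 264 CPM.

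The effect of the sort was then compared among the lines in 1 fit of the 24 nuclear libraries. It differed for 20 of 35 members tested, and for 24.5% of 12171 genes. The smallest p belonged to Pcdh9 (adjusted p = 2.67e-06 by the joint F test of edgeR), which in this fit rose in the oligodendrocyte line by 2.53 ± 0.26 and was at 0.21 ± 0.25 and -0.10 ± 0.25 in the neuron and astrocyte lines. Cdh18 (adjusted p = 3.951e-06) was at -3.46 ± 0.56 and -3.65 ± 0.54 in the astrocyte and oligodendrocyte lines and at 1.45 ± 0.49 in the neuron line, where the sort effect itself did not pass in this fit (adjusted p = 0.107). Pcdh15 (adjusted p = 7.1e-06) was at -4.63 ± 0.58 in the astrocyte line and at -0.48 ± 0.48 and 0.82 ± 0.48 in the neuron and oligodendrocyte lines. Cdh20 (adjusted p = 5.60e-05) was at 2.84 ± 0.48 in the astrocyte line, -1.43 ± 0.48 in the neuron line and 1.80 ± 0.47 in the oligodendrocyte line. With the libraries paired as a block, 17 members differed (20.7% of all genes). Cdh1, Cdh13, Cdh19 and Pcdh18 were then lost (adjusted p from 0.0545 to 0.0921). Of the 20, Cdh13, Cdh19, Fat4 and Pcdh18 were lost without some single library, Cdh13 without 20 of the 24 (adjusted p up to 0.133), Cdh19 without 8 of the 12 with which it could be tested (up to 0.74), Fat4 without presort astrocyte replicates 7 or 31 (0.0655 and 0.0567) and Pcdh18 without presort oligodendrocyte replicate 11 (0.0583).

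Nuclei and cytoplasm of whole brain were compared with the 12 presort and the 2 cytoplasmic libraries. Of 26 members tested, 14 were higher in nuclei, where 20.1% of 7728 genes were, and 0 were higher in cytoplasm, where 30.2% of all genes were. DESeq2 gave 15 and 0 (22.6% and 29.5% of all genes). At an unadjusted p under 0.05, for which no share of all genes is given here, edgeR gave 14 and 0. The median difference was 1.24 over the members and -0.12 over all genes, and 23 of the 26 values were above 0. Pcdh9 had the smallest p: it read 619 to 922 CPM over the presort libraries, with a median of 804, and 78.2 and 80.3 CPM in cytoplasm (log2 fold change 2.71 ± 0.29, adjusted p = 2.66e-07). Fat1 read 593 to 1324 CPM in presort nuclei and 34.7 and 89.8 CPM in cytoplasm (log2 fold change 3.12 ± 0.41, adjusted p = 2.93e-06), and Cdh18 104 to 329 CPM and 15 and 18.8 CPM (log2 fold change 2.89 ± 0.46, adjusted p = 2.34e-05). The groups did not overlap for any of these 3. Fat4, Celsr3, Pcdh15, Pcdh7, Cdh7, Cdh8, Cdh1 and Cdh2 were higher in nuclei by 1.25 to 4.32. Cdh10, Cdh11 and Dchs1 also passed (1.22 to 1.88), but Cdh10 and Dchs1 were lost without cytoplasm replicate 1 (adjusted p of 0.0778 and 0.0966) and Cdh11 without cytoplasm replicate 2 (0.0661).

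**Figure D5:**
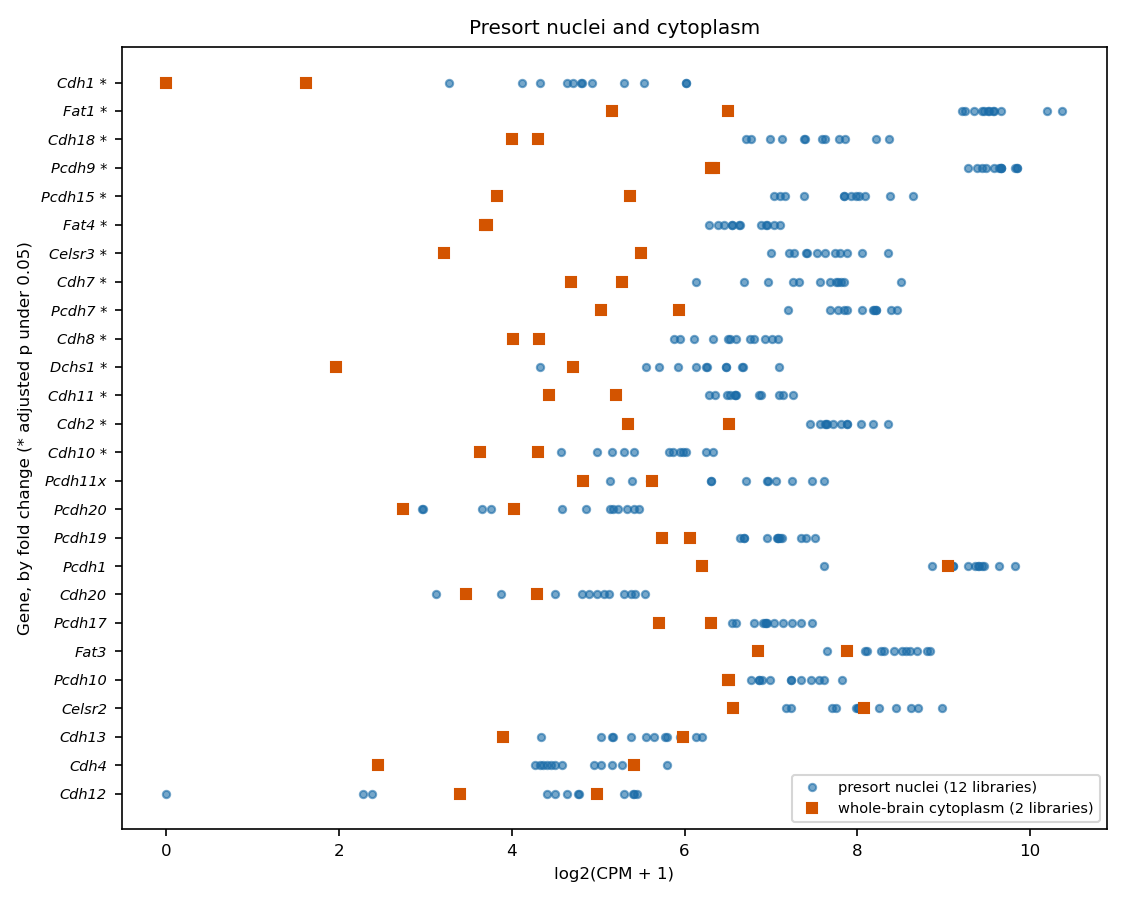
Level as log2(CPM + 1) (horizontal axis) of the 26 members tested (rows, by fold change) in 12 presort libraries (circles) and 2 cytoplasmic libraries (squares). For Pcdh9, Fat1 and Cdh18 both squares lie far to the left of all circles, and for Cdh4, Cdh12 and Cdh13 they lie among or beside them.

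Members that did not pass here included Cdh4 (log2 fold change -0.23 ± 0.52, adjusted p = 0.742), Cdh12 (log2 fold change -0.32 ± 0.65, adjusted p = 0.704) and Cdh13 (log2 fold change -0.21 ± 0.42, adjusted p = 0.705), whose cytoplasmic libraries read 4.48 and 41.7, 30.7 and 9.52 and 13.9 and 62 CPM. The Cdh4 difference was 1.93 without cytoplasm replicate 2 (adjusted p = 0.0148). Gene span moved with the result. Of the 18 tested members over 100 kb, 11 were higher in nuclei, and of the 8 shorter ones 3 were; over all genes with a known span the shares were 26.9% of 1549 and 18.2% of 6101. Several marker lists of cell types moved with the compartment as well, and others did so little. Of the measured markers, 8 of 8 endothelial (median 4.56), 8 of 8 mural and fibroblast (2.41) and 5 of 6 oligodendrocyte precursor markers (2.76) were higher in nuclei. So were 6 of 13 astrocyte markers (1.29), with 1 higher in cytoplasm. Of 15 neuronal markers 10 were higher in cytoplasm and 2 in nuclei (median -1.72), and of 14 oligodendrocyte markers 4 were higher in cytoplasm and 0 in nuclei (-0.67). Cerebellar granule cell markers, 9 of them measured, had 3 higher in nuclei and 1 in cytoplasm (0.35). Microglia markers, 5 measured, had 0 higher in either (0.16). Ependymal and choroid plexus markers, 2 measured, had 1 higher in nuclei and 0 in cytoplasm (0.19). The parts of gene length and of these cell types in the members' result were not tested.

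Sex was compared over the 12 sorted libraries, with the 3 types as a covariate. No member passed by edgeR or by DESeq2 (0 of 36), beside 0.0154% of 13029 genes higher in females and 0.0307% lower. At an unadjusted p under 0.05 edgeR gave 1 member, the X-linked Pcdh11x, which was higher in females by 1.08 ± 0.33 (adjusted p = 0.876). Its levels were 70.1, 139, 214 and 196 CPM in neurons, 90.8, 141, 246 and 111 CPM in astrocytes and 64.1, 51.5, 187 and 144 CPM in oligodendrocytes, the last 2 values of each type being females. Sex coincided with the block of replicate numbers (1 to 12 in males, 25 to 36 in females), so sex and number cannot be told apart.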

How the data were processed

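Per the labels' protocols, RNA isolated in Trizol and cleared of DNA was made into libraries with NuGEN's Ovation kit. The deposited table holds raw counts per gene for 27501 Ensembl identifiers and the GFP transgene, with no normalization found in the values. The submitters' processing notes name Trimmomatic, Bowtie2, STAR, bedtools and edgeR. Their versions, the genome build, the regions counted and the strand setting stand in none of the sources used here (not given), so it is not known whether introns were counted. Of the identifiers, 26495 were found in GENCODE M21 (GRCm38), which gave symbols, biotypes and positions, and 1006 were not.

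Counts were tested with edgeR 4.0.16 in R 4.3.3, by its quasi-likelihood F test with TMM normalization, after removing genes that filterByExpr (minimum count 10) judged too low. The SE is the fold change divided by the square root of F. Fits used the 12 sorted libraries for types and sex, the 8 libraries of a line for the effect of its sort, the 12 presort and 2 cytoplasmic libraries for compartments, and the 24 nuclear libraries for differences between sort effects. A p adjusted by Benjamini-Hochberg over all genes tested under 0.05 was called. Counts at an unadjusted p under 0.05 are given without the share of all genes, so they do not set the members apart. Alternatives were DESeq2 1.42.0, its size factors, no filter, wider fits, sex as a covariate, each sex alone and each library left out. Chosen after seeing the data were leaving out both sorted libraries that stand apart, and a block that pairs each presort library with the sorted library of the same line whose number comes next. Presort RNA came from every mouse, per the series' design, but no label ties the numbers. Over genes, deviations from the group means correlated by 0.199 to 0.324 in the 4 neuron pairs, 0.028 to 0.131 in the astrocyte pairs and -0.001 to 0.174 in the oligodendrocyte pairs, and 8 of 12 sorted libraries correlated best with their own partner. Levels are CPM of the total counts and cover no gene length. Intervals of counting error were not computed, as each group has replicates, and the floor of 3 counts covers counting error only. The fitting code was tested on simulated data. Members given in full were those higher in 1 type and the largest change of each subfamily. The members and lists were chosen with earlier results of these data known. P-values measure the spread between single mice. The cell type that the labels give for the cytoplasmic libraries was not used.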

Additional observations from a re-analysis of the deposited data

Results flagged for a closer look

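A library stood far from the other 3 of its group in 21 of 188 pairs of member and group with at least 10 counts in the highest library. The measure was the gap to the nearest other library over the group's range, above Dixon's 95% critical value for 4 libraries. Chance passes that value in about 1 of 20 groups of normal values of equal precision. CPM values from libraries of unlike depth do not meet this, so the 21 of 188 cannot be weighed against that rate. Sorted oligodendrocyte replicate 36 gave 6 of these: it was high for Celsr3 (408 CPM), Celsr2 (510 CPM), Cdh2 (577 CPM) and Cdh22 (15.0 CPM), and low for Cdh10 (33.1 CPM) and Pcdh17 (18.7 CPM). Other sorted oligodendrocyte libraries stood apart for Cdh19 (56.2 CPM, high in replicate 34) and Cdh24 (5.72 CPM, high in replicate 12). Sorted neuron replicate 2 was high for Fat1 (1923 CPM) and low for Pcdh9 (605 CPM) and Cdh11 (61.0 CPM), and sorted astrocyte replicate 32 was low for Pcdh9 (507 CPM).

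Among presort libraries, oligodendrocyte line replicate 35 stood apart for Cdh2 (328 CPM, high) and Pcdh7 (146 CPM, low). Astrocyte line replicate 29, the deep one, stood apart for Cdh4 (31.8 CPM), Cdh23 (8.25 CPM) and Pcdh1 (467 CPM), and replicate 5 for Cdh15 (27.1 CPM) and Cdh19 (20.3 CPM). Neuron line replicate 27 stood apart for Cdh12 (42.6 CPM) and replicate 3 for Pcdh19 (137 CPM).

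The effect of the sort differed among the 3 lines for 20 of 35 members by the joint F test of edgeR. The adjusted p was 2.675e-06 for Pcdh9, 3.951e-06 for Cdh18, 7.1e-06 for Pcdh15, 5.601e-05 for Cdh20, 8.219e-05 for Cdh8, 9.106e-05 for Cdh7 and 9.976e-05 for Cdh15. It was 0.0001489 for Celsr1, 0.0002207 for Fat3, 0.0004403 for Pcdh20, 0.0007127 for Cdh9, 0.001064 for Dchs1, 0.003147 for Pcdh10, 0.003961 for Cdh4, 0.005544 for Cdh1 and 0.009546 for Celsr3. For Pcdh18 it was 0.01735, for Fat4 0.03032, for Cdh13 0.03712 and for Cdh19 0.04675.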

How the results depend on the processing

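Of 112 member calls, RLE size factors kept 111, DESeq2 111, no filter 106, sex as a covariate 108 of those tested, the fit of the 24 nuclear libraries 66 of 78, that of all 26 libraries 14 of 14, males alone 62 of 76 females alone 17 of 78 and the paired fit 43 of 53. Leaving out each library in turn lost 29, and the other 83 passed in every such fit that tested them. Some of the 83, such as Cdh1 in the neuron sort, were too low to be tested in some of these fits. None of the 112 changed direction in any fit that tested it.

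With 1 library left out, members higher in neurons than in astrocytes numbered 6 to 9 and members lower 6 to 15. Against oligodendrocytes they numbered 10 to 15 and 4 to 7, and between astrocytes and oligodendrocytes 8 to 16 and 2 to 4. The upper ends of 15, 7 and 16 lower or higher members came without sorted oligodendrocyte replicate 36. The same 15, 7 and 16 were found without both that library and sorted astrocyte replicate 30. Without both, the matching shares of all genes rose too, from 11.4% to 20.4%, from 12.4% to 19.0% and from 9.62% to 14.4%. Shares of all genes for single libraries left out are not given beside these ranges. For the sort, the ranges were 1 to 2 higher and 1 to 3 lower in the neuron line, 10 to 15 and 5 to 10 in the astrocyte line, and 1 to 4 and 0 to 8 in the oligodendrocyte line. With fewer samples some members had too few counts to be tested. The 0 came without presort oligodendrocyte replicate 33 or 35, and the 1 higher member in the neuron line without sorted replicate 28. For compartments the range was 14 to 16 higher in nuclei and 0 lower, for the difference in sort effect 14 to 21, and for sex 0.

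Females alone gave 0 members in both directions in the 3 comparisons of sorted types and in the oligodendrocyte sort, and 6 higher in the astrocyte sort. Males alone gave 15 members higher in astrocytes than in oligodendrocytes, 0 higher and 0 lower in the neuron sort, 7 higher in the astrocyte sort and 4 higher in the oligodendrocyte sort. DESeq2 gave 14 members higher in astrocytes than in oligodendrocytes and 3 higher in the oligodendrocyte sort. The fit of the 24 nuclear libraries gave 5 members lower in astrocytes than in oligodendrocytes, 0 higher in the neuron sort, 6 higher in the astrocyte sort, and 4 higher and 14 lower in the oligodendrocyte sort. Sex as a covariate gave 3 lower in the oligodendrocyte sort. The replicate block, which pairs each presort library with the next sorted number and was chosen after seeing the data, gave 5 higher and 4 lower in the neuron sort and 0 lower in the oligodendrocyte sort. Shares of all genes in these fits are given only where stated earlier, so the counts alone do not set the members apart. Subsets of 1 sex hold fewer samples, and the cause of the other shifts was not tested.

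Values that changed sign were few. Celsr3 for neurons over oligodendrocytes was 3.35 in males alone and 3.016 without both libraries, and with 1 library left out it ran from -1.138 to 3.015, the highest without sorted oligodendrocyte replicate 36. Celsr3 in the oligodendrocyte sort was -2.875 in males alone and ran from -3.245, without replicate 36, to 0.876. Cdh4 for nuclei over cytoplasm was -0.959 without cytoplasm replicate 1 and 1.932 without replicate 2. Depth limits most sorted astrocyte replicate 30, where 1 count was worth 7.44 CPM, and the presort libraries other than astrocyte line replicate 29, where it was worth up to 6.76 CPM.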
